A study of Mus musculus with 152 samples.

Results

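The respiratory chain and the ATP synthase of mouse liver were followed as 108 genes among 54532 genes listed, 13 of them on the mitochondrial genome and 95 in the nucleus. Members were chosen by symbol: the mitochondrial genes of complexes I, III, IV and V, and the nuclear genes whose symbols start with those of the subunits of complexes I to V, with at least 1 value above 0. The nuclear members comprised 36 subunits of complex I and 8 of its assembly factors, 4 subunits of complex II, 8 of complex III, 17 of complex IV and 16 of complex V. The remaining 6 were Cox7a2l, a factor of supercomplex assembly, Atp5s, a protein associated with complex V, and the annotated processed pseudogenes Cox6c2, Ndufa11b, Ndufb4c and Ndufs6b. Cox7b2 and Cox8c were listed at 0 throughout and are not members.

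Complexes I to IV pass electrons from NADH and succinate to oxygen. Complexes I, III and IV pump protons across the inner mitochondrial membrane, and complex V uses the proton gradient to make ATP. The 13 mitochondrial mRNAs encode core subunits and are cut from long transcripts of both strands of the mitochondrial genome, whereas all other subunits, the assembly factors and the whole of complex II come from nuclear genes. Hepatocytes are rich in mitochondria, and mitochondrial fatty acid oxidation delivers NADH and reduced flavin to the chain.

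The livers came from C57BL/6J mice, an inbred strain. From the age of 8 weeks the mice ate LIDPAD, a diet that induces non-alcoholic fatty liver disease, while the controls ate a purified diet. Livers were taken after 1, 4, 8, 12, 16, 32 or 48 weeks, and the labels used here give no sex. RNA from whole liver was sequenced, so a lower level can come from fewer cells of a type or from less RNA per cell, and these cannot be told apart. The 152 deposited samples formed blocks of 4 that differed by no more than sampling noise, and each block was counted as 1 library. That gave 20 LIDPAD and 18 control libraries. Weeks 1, 4, 8 and 12 had 2 for each diet and week 16 had 3 for each, with 5 LIDPAD and 4 control libraries at week 32, and 4 LIDPAD and 3 control libraries at week 48. The labels do not tie libraries to separate animals, so the p-values rest on a between-library spread that may be technical.

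Depth ran from 10870033 to 53802026 reads per library, with a median of 28967976. Values are FPM, which are counts divided by a size factor and expressed per 1000000, and each week's table was normalized separately. Log2 differences are LIDPAD minus control means of log2(FPM + 0.5), which understate the change of low genes. Genes with a limma adjusted p under 0.05 over all genes tested in a week were called. The summed FPM of 7 hepatocyte markers ran from 26006 to 108257 in LIDPAD libraries and from 62883 to 97190 in control libraries, while 6 skeletal muscle markers summed to at most 0.723 FPM in LIDPAD libraries and at most 6.68 FPM in control libraries.

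The choice of scale mattered for directions. Rescaling each library to a total of 1000000 moved the median log2 difference of all genes by 0.01, 0.06, 0.11, 0.19, 0.20, 0.29 and 0.26 at weeks 1, 4, 8, 12, 16, 32 and 48, against medians between -0.01 and 0.04 in FPM. The share of calls that were higher in LIDPAD was 68.8, 59.0, 57.6, 67.2 and 66.2% at weeks 8, 12, 16, 32 and 48 in FPM and 84.5, 82.7, 83.1, 91.8 and 93.8% after rescaling. Medians of the members are therefore also given relative to the median of all genes, which hardly moves with the scale. A week's mitochondrial and nuclear members share their libraries, so the scale also cancels in the difference between them.

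Per kilobase of exon, every mitochondrial mRNA lay above every nuclear member by its median over the 38 libraries. mt-Co1, the catalytic subunit of complex IV, was highest with a median of 8825 FPM per kb and a range of 6787 to 11796 FPM per kb. mt-Nd6, the 1 mRNA of the light strand, was the lowest mitochondrial mRNA at 442 FPM per kb. Atp5a1, the alpha subunit of complex V, led the nuclear members at 172 FPM per kb, ahead of Cox8a of complex IV at 136 FPM per kb and Atp5b, the beta subunit of complex V, at 129 FPM per kb. These levels span weeks whose tables were scaled separately.

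Counts of 7 mitochondrial mRNAs are uncertain because nuclear copies carry the same sequence. Of their 50-base stretches, 97.99 to 100% in mt-Co2, mt-Co3, mt-Atp6, mt-Nd3 and mt-Nd4l, 62.2% in mt-Nd4 and 51.1% in mt-Co1 were identical to another annotated gene. Levels listed for the copies varied. Gm28661, a nuclear copy of mt-Co2, ran from 2673 to 5709 FPM and mt-Co2 itself from 2678 to 5734 FPM, whereas Gm13341, another copy of mt-Co2, ran from 97.1 to 204 FPM. Gm29216, a copy of part of mt-Co1, ran from 3670 to 6274 FPM and mt-Co1 from 10486 to 18224 FPM. The other 6 mRNAs, mt-Nd1, mt-Nd2, mt-Nd5, mt-Nd6, mt-Cytb and mt-Atp8, shared under 10% of their stretches.

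mt-Atp8 and mt-Atp6, the mitochondrial subunits of complex V, lie on 1 transcript and their reading frames overlap by 43 bases, 21.1% of mt-Atp8. The overlap is shown because reads within it belong to both genes, and its bases also occur in the nuclear copy Gm10925. It lies on the plus strand of GRCm38 at chrM:7927-7969, with the start codon of mt-Atp6 and the final codon of mt-Atp8 in capitals.
mt-Atp8/mt-Atp6 overlap: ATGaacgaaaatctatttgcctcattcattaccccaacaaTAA

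Calls among the mitochondrial mRNAs came at weeks 16 and 48, and all were lower in LIDPAD livers. At week 16, 3 of 13 were called lower, mt-Nd4l, mt-Nd4 and mt-Nd5, where 12% of all genes tested were called lower and 28.2% were called either way. At week 48, 2 of 13 were called lower, mt-Nd4l and mt-Atp8, where the share was 3.34% of all genes, with 9.87% called either way. After rescaling to a total of 1000000 no mitochondrial mRNA was called at either time, while all 13 stayed below the median of all genes under the deposited scale and both rescalings at weeks 1, 16, 32 and 48.

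mt-Nd5, a proton-pumping subunit of complex I at chrM:11742-13565, had 1192, 1133 and 1093 FPM in the week 16 LIDPAD libraries, against 1494, 1362 and 2407 FPM in the control libraries. The groups did not overlap, and control library 3 stood above the others. The log2 difference was -0.58 ± 0.19 (SE, n = 3 each) with a limma adjusted p of 0.0459. Without control library 3 the difference was -0.33 with an adjusted p of 0.0974, and the call was also lost without any 1 of the 3 LIDPAD libraries.

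mt-Nd4, another pumping subunit at chrM:10167-11544, had 1762, 1873 and 1734 FPM in week 16 LIDPAD libraries, against 2506, 2315 and 3123 FPM in control libraries. Its log2 difference was -0.55 ± 0.15 with a limma adjusted p of 0.0194, and the call was lost without control library 3, LIDPAD library 1 or LIDPAD library 3, with adjusted p of 0.0548, 0.0687 and 0.0845. mt-Nd4l, the small subunit whose frame overlaps the start of mt-Nd4, had 226, 228 and 226 FPM in LIDPAD libraries and 312, 278 and 319 FPM in control libraries. The groups were well apart, and the log2 difference of -0.41 ± 0.09 had a limma adjusted p of 0.00672. The week 16 count of called mitochondrial mRNAs was 4 without control library 1 or 2, 2 without control library 3 or LIDPAD library 2, and 1 without LIDPAD library 1 or 3. Over these same fits the number of all genes called ran from 2810 to 4058, against 3928 with every library.

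At week 48 mt-Nd4l had 228, 222, 204 and 207 FPM in LIDPAD libraries, against 313, 254 and 352 FPM in control libraries. All LIDPAD values were lower, with a log2 difference of -0.50 ± 0.12 and a limma adjusted p of 0.0430. mt-Atp8 had 334, 317, 264 and 315 FPM in LIDPAD libraries and 421, 391 and 433 FPM in control libraries, again without overlap. Its log2 difference was -0.43 ± 0.11 with a limma adjusted p of 0.0454. Leaving out any LIDPAD library or control library 1 took the count to 0, leaving out control library 2 took it to 1, and leaving out control library 3 took it to 7. Over these same fits the number of all genes called ran from 134 to 5714, against 1462 with every library. Control library 3 stood apart from control libraries 1 and 2. Its chi-square to them was at least 25.5, against at most 7.07 between those. Mitochondrial mRNA made up 5.34% of its total, against 3.91 and 3.70% in control libraries 1 and 2. In the LIDPAD libraries the share was 4.05, 4.16, 3.90 and 3.82%. Every LIDPAD share thus lay above that of control library 2 and below that of control library 3. Without control library 3 the mitochondrial minus nuclear difference of the week was -0.19, against -0.24 with it.

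Several mRNAs that were not called had values of similar size at week 48. mt-Nd4 averaged 1724 ± 67.6 FPM in LIDPAD and 2534 ± 395 FPM in control livers, with a limma adjusted p of 0.0763. mt-Cytb, the mitochondrial subunit of complex III, averaged 2959 ± 206 FPM in LIDPAD and 4213 ± 248 FPM in control livers, with an adjusted p of 0.115 (SD, n = 4 and 3). In 11 of 13 mRNAs every LIDPAD library lay below every control library, a pattern found in 10.7% of all genes at that week. DESeq2 on the recovered reads called 11 of 13 and edgeR called 2. The shares of all genes called by DESeq2 and edgeR are not given here, so these counts have no background.

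**Figure D1:**
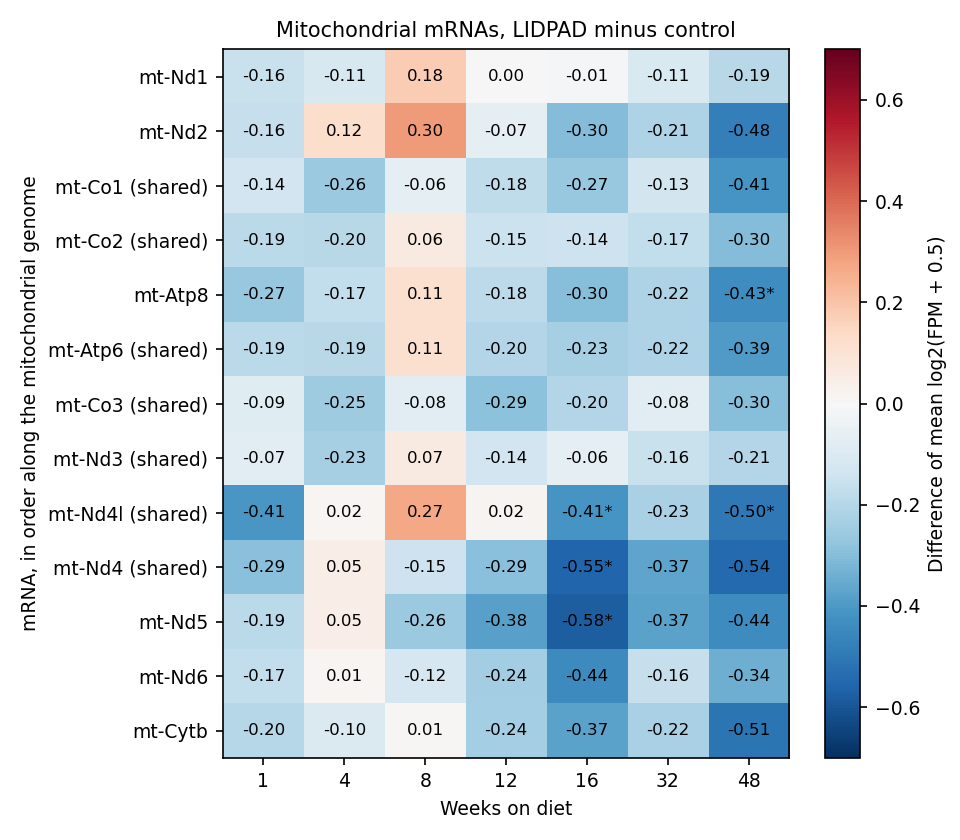
Log2 differences of the 13 mitochondrial mRNAs by weeks on diet (columns), in order along the mitochondrial genome (rows), from blue for lower in LIDPAD to red for higher. Stars mark limma calls and "shared" marks mRNAs whose sequence largely recurs in nuclear copies; weeks 16 and 48 hold the called values, from -0.41 to -0.58.

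Separation of the diets, with every LIDPAD library below every control library, was also counted. It held for 6, 0, 4, 8, 10, 0 and 11 of 13 mitochondrial mRNAs from week 1 to week 48, where 24.4, 20.9, 27.1, 28.2, 19.7, 8.8 and 10.7% of all genes tested were separated in that direction. For the nuclear members tested it held for 4, 11, 20, 15, 15, 3 and 17. In the opposite direction it held for 1 mitochondrial mRNA, at week 8, and for 11, 3, 15, 12, 3, 0 and 0 nuclear members. The shares of all genes in the opposite direction were 24.2, 21.3, 28.3, 29.3, 23.5, 17 and 14.1%. These members share their libraries, so the counts are a description.

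At the remaining times the mitochondrial counts were 0 with limma. An unadjusted p under 0.05 was found for 1965 of 12538 genes at week 1 and 1457 of 13237 at week 4. It was found for 3241 of 13271 at week 8, 3956 of 13631 at week 12 and 5450 of 14187 at week 32. At week 1, where 1.99% of all genes were called, 1 of 13 mRNAs had an unadjusted p under 0.05, and edgeR and DESeq2 called 0. At week 4, with 0.287% of all genes called, and at week 8, with 5.6%, 0 of 13 had an unadjusted p under 0.05, and both count tests called 0. At week 12, with 15.2% of genes called, 1 of 13 had an unadjusted p under 0.05, edgeR called 0 and DESeq2 called 1, and leaving out control library 1 or 2 gave 4 or 3 calls. Calls over all genes ran from 853 to 3104 when each week 12 library was left out. At week 32, with 26.9% of genes called, 0 of 13 had an unadjusted p under 0.05 and both count tests called 0.

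The median log2 difference of the 13 mitochondrial mRNAs was -0.19, -0.11, 0.06, -0.18, -0.30, -0.21 and -0.41 at weeks 1, 4, 8, 12, 16, 32 and 48. That of the nuclear members tested, 87 at week 32 and 86 otherwise, was 0.03, -0.08, -0.02, -0.03, -0.08, -0.17 and -0.17. Relative to the median of all genes, the mitochondrial medians were -0.19, -0.10, 0.07, -0.18, -0.30, -0.25 and -0.42 and the nuclear ones 0.03, -0.07, -0.01, -0.02, -0.08, -0.21 and -0.18. Mitochondrial minus nuclear medians were -0.22, -0.03, 0.08, -0.16, -0.22, -0.04 and -0.24, so the mitochondrial median was the lower by 0.16 or more at weeks 1, 12, 16 and 48. At week 1 the nuclear median itself was above 0. Leaving out control library 1 or 2 of week 12 gave -0.29 or -0.052, and the week 16 difference was -0.14 without control library 3. With the 6 mRNAs that share few stretches the differences were -0.21, 0.03, 0.08, -0.18, -0.26, -0.05 and -0.27.

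The ratio of summed mitochondrial to summed nuclear FPM within a library gave the same comparison library by library. At week 1 it was 7.89 and 7.71 in LIDPAD libraries and 8.76 and 9.02 in control libraries. At week 12 it was 7.05 and 6.93 in LIDPAD libraries and 7.77 and 8.09 in control libraries. At week 16 it was 6.04, 6.04 and 6.37 in LIDPAD libraries and 6.77, 6.73 and 7.21 in control libraries. In these 3 weeks all LIDPAD libraries were below all control libraries.

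Ratios overlapped in the other weeks. At week 48 they were 7.74, 7.55, 6.71 and 6.97 in LIDPAD and 7.69, 8.22 and 8.89 in control libraries, with means of 7.24 ± 0.486 and 8.26 ± 0.601 (SD). Restricted to the 6 mRNAs with few shared stretches, the week 48 groups did not overlap, at 1.62 to 1.84 in LIDPAD and 1.87 to 2.21 in control libraries, while the week 12 groups did.

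Week 32 was heterogeneous. LIDPAD ratios were 8.89, 10.7, 7.03, 7.19 and 6.97 and control ratios 8.27, 7.58, 8.40 and 8.24. LIDPAD library 1 and library 2, which had 56700 FPM of mitochondrial mRNA, lay above all control libraries, and LIDPAD libraries 3, 4 and 5 lay below them. The libraries of that week formed 2 groups by how reads were divided over the 4 columns of a block, a grouping read from the data that no label names. Group B held 3 libraries per diet and group C held 2 LIDPAD and 1 control library. Mitochondrial minus nuclear medians were 0.14 in group B and -0.26 in group C. Counts called were 0 mitochondrial and 4 nuclear in group B. With the grouping as a covariate over all libraries of the week they were 0 and 12, against 0 and 4 without it. Group C, with a single control library, gives values but no usable test. Its LIDPAD libraries, 4 and 5, had a chi-square of the reads of 2.56 to 2.65 between them, against 2.03 to 2.16 within blocks. Both are counted in the week 32 group sizes, so SDs and p-values of that week may understate the spread.

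**Figure D2:**
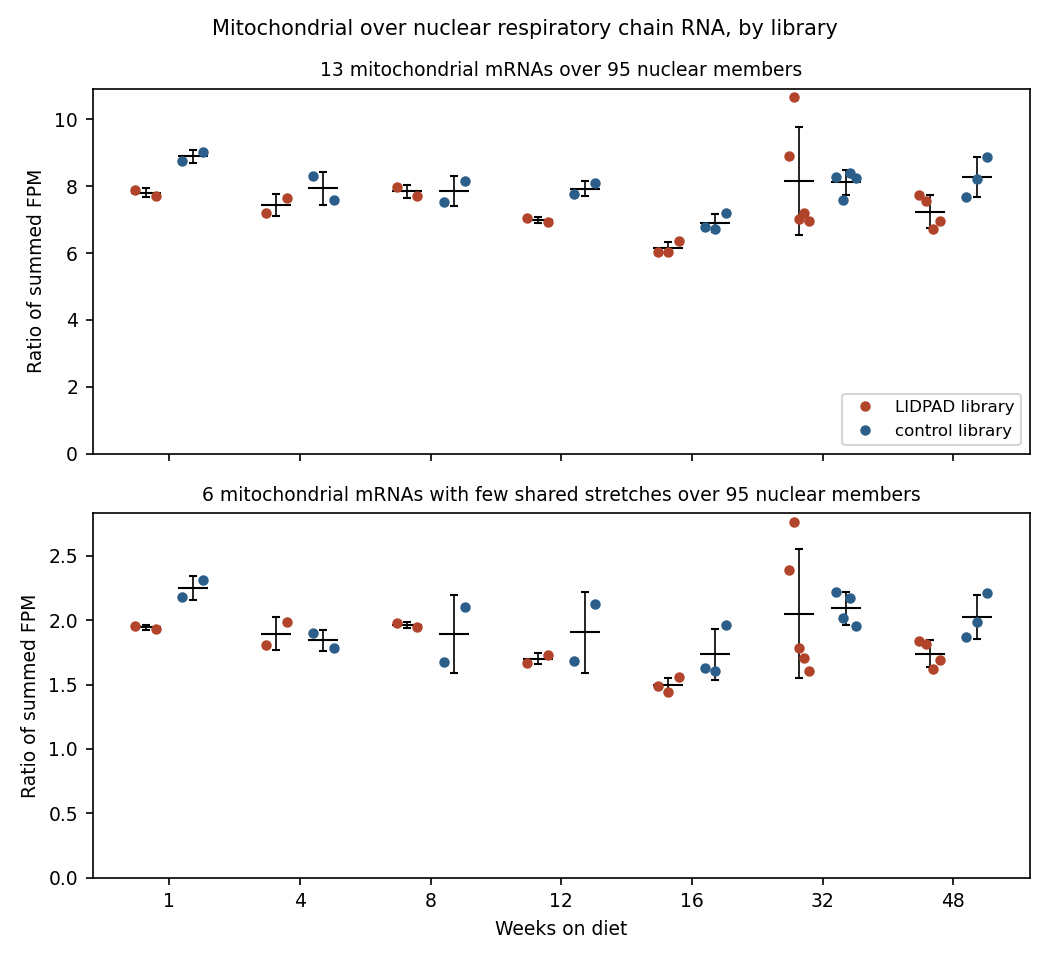
Ratio of summed mitochondrial to summed nuclear FPM per library by weeks on diet, for all 13 mitochondrial mRNAs (top) and for the 6 with few shared stretches (bottom); dots are libraries, LIDPAD left of control, and black bars are means ± SD. LIDPAD libraries lay below all control libraries at weeks 1, 12 and 16 in the top panel, and 1 LIDPAD library reached 10.7 at week 32.

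Within the mitochondrial set the differences varied with position. Across the 12 mRNAs of the heavy strand, Spearman's rho between the log2 difference and the start coordinate was -0.39, 0.27, -0.53, -0.58, -0.62, -0.69 and -0.55 from week 1 to week 48. The mRNAs share libraries, nuclear copies and a precursor, so this is a description across genes and not a test. The ratio of mt-Nd5 to mt-Nd1 per kb compares 2 complex I mRNAs with few shared stretches that lie far apart along the heavy strand. It was 0.330 and 0.366 in week 8 LIDPAD libraries and 0.498 and 0.446 in control libraries, and 0.327 and 0.347 in week 12 LIDPAD libraries and 0.426 and 0.454 in control libraries. At week 16 it was 0.279, 0.265 and 0.232 in LIDPAD and 0.304, 0.348 and 0.525 in control libraries. The groups did not overlap in these 3 weeks and overlapped in the others. mt-Nd1 alone averaged 2317 ± 131 FPM in LIDPAD and 2345 ± 264 FPM in control livers at week 16, a log2 difference of -0.01 (SD, n = 3 each).

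The mitochondrial ribosomal RNAs, mt-Rnr1 and mt-Rnr2, are not members but come from the same genome. Their sum was 185172 to 199457 FPM in LIDPAD and 214696 to 223790 FPM in control libraries at week 16, and 207282 to 244466 FPM in LIDPAD and 256394 to 271698 FPM in control libraries at week 48. At week 32 the groups overlapped, at 158013 to 288340 FPM in LIDPAD and 180513 to 263877 FPM in control libraries, with the LIDPAD mean the higher. Neither gene was called in any week with limma, and 0 had an unadjusted p under 0.05. As a share of the library total the sum was 20.6 to 21.4% in LIDPAD and 20.0 to 21.2% in control libraries at week 16. At week 32 this share was 20.9 to 30.2% in LIDPAD and 18.3 to 23.0% in control libraries. At week 48 it was 23.8 to 26.3% in LIDPAD and 23.0 to 26.0% in control libraries. The shares of the diets overlapped in each of these weeks.

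Among nuclear members, every call was lower in LIDPAD and calls were few. Numbers called were 0, 0, 1, 1, 4, 4 and 3 at weeks 1, 4, 8, 12, 16, 32 and 48, where 1.27, 0.166, 1.75, 6.25, 12, 8.82 and 3.34% of all genes were called lower. None was called higher, where 0.726, 0.121, 3.85, 8.99, 16.3, 18 and 6.54% of all genes were. The called share of nuclear members was thus at or below that of all genes in each week except week 48, where it was close to it. At weeks 1 and 4, 3 nuclear members each had an unadjusted p under 0.05, and edgeR and DESeq2 called 0. Over all genes tested, 1965 of 12538 and 1457 of 13237 had such a p. After rescaling to a total of 1000000 no nuclear member was called lower and 3, 5, 1 and 2 were called higher at weeks 12, 16, 32 and 48. The members called higher were Ndufb3, Ndufa2 and Atp5s at week 12, Ndufaf4, Atp5d, Cox5a, Uqcr10 and Cox7a2l at week 16, Atp5s at week 32, and Ndufc2 and Atp5s at week 48.

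Single libraries also moved these counts, and those over all genes. With each library left out, calls over all genes ran from 853 to 3104 at week 12 and 2810 to 4058 at week 16. They ran from 2988 to 3629 at week 32, 33 to 1123 at week 1, 39 to 855 at week 4 and 82 to 1665 at week 8. At week 12 the nuclear count was 4 without control library 1, 15 without control library 2 and 0 without LIDPAD library 1 or 2. At week 16 it was 7 without control library 3 and 2 without control library 2, LIDPAD library 1 or LIDPAD library 3. At week 32 it was 0 without control library 1 or 3, 2 without LIDPAD library 1 or 2, and 1 without LIDPAD library 3. At week 1 the counts were 2 mitochondrial and 1 nuclear without LIDPAD library 1, at week 4 the nuclear count was 1 without control library 1, and at week 8 the mitochondrial count was 3 without control library 2.

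**Figure D3:**
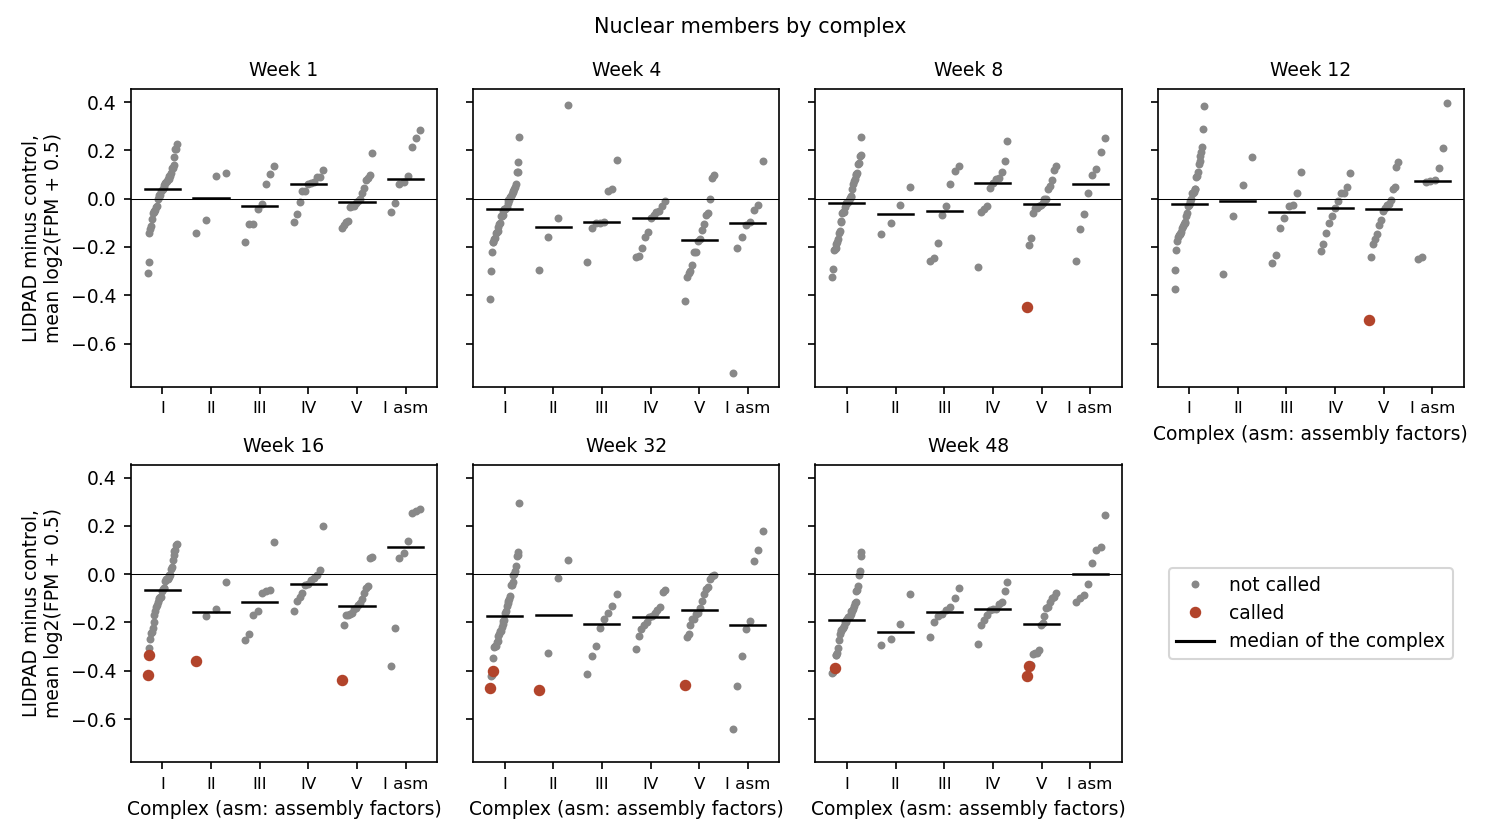
Log2 difference of each nuclear member tested, LIDPAD minus control, by complex and week (asm, assembly factors of complex I); red dots were called by limma, grey dots were not, and black lines are medians. Most dots lie within 0.4 of 0, and the medians of complexes I to V at weeks 32 and 48 lie between -0.14 and -0.24.

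Complex I, the NADH dehydrogenase, contributed Ndufa6, Ndufb5, Ndufb10 and Ndufb11, all accessory subunits. Ndufa6, on the minus strand of chromosome 15, had LIDPAD values below all control values in each of the 7 weeks. It had 58.8, 66.4 and 54.2 FPM in week 16 LIDPAD libraries and 80.6, 82.4 and 76.4 FPM in control libraries. The log2 difference was -0.42 ± 0.10 at week 16, with a limma adjusted p of 0.00898, and -0.47 ± 0.13 at week 32, with an adjusted p of 0.0216. Within these read-division groups the week 32 difference was -0.56 in group B, with an adjusted p of 0.0506, and -0.33 in group C. In the other weeks it lay between -0.30 and -0.41 and was not called.

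Ndufb11, encoded on the X chromosome, averaged 40.6 ± 3.29 FPM in week 16 LIDPAD livers and 51.4 ± 5.64 FPM in control livers (SD, n = 3 each), with a limma adjusted p of 0.0400. Ndufb10 averaged 33.1 ± 2.28 FPM in week 48 LIDPAD livers and 43.4 ± 1.30 FPM in control livers (SD, n = 4 and 3), with an adjusted p of 0.0289. Ndufb5 averaged 27.9 ± 3.80 FPM in week 32 LIDPAD livers and 37.0 ± 4.48 FPM in control livers (SD, n = 5 and 4), with an adjusted p of 0.0482. Of Ndufb11 17.5% and of Ndufb5 11.2% of the 50-base stretches occur in another gene, for Ndufb5 the antisense Mrpl47. As a sum, the 36 nuclear subunits reached 1162 ± 56.8 FPM in LIDPAD and 1360 ± 107 FPM in control livers at week 48, without overlap. That separation is on the deposited scale, where library totals were 871445 to 948005 FPM in LIDPAD and 985185 to 1178840 FPM in control libraries. As a share of the total, all nuclear members together overlapped at week 48, at 0.523 to 0.581% in LIDPAD and 0.450 to 0.601% in control libraries. At week 8 that share was 0.550 and 0.534% in LIDPAD and 0.511 and 0.498% in control libraries. At week 12 it was 0.565 and 0.567% in LIDPAD and 0.492 and 0.506% in control libraries. LIDPAD was thus the higher at weeks 8 and 12, and the diets overlapped in the other weeks.

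Complex II, the succinate dehydrogenase, has only nuclear subunits and is shared with the citrate cycle. Sdhd, a membrane anchor, had 92.2, 107 and 90.7 FPM in week 16 LIDPAD libraries and 124, 131 and 116 FPM in control libraries, a log2 difference of -0.36 ± 0.10 with a limma adjusted p of 0.0182. At week 32 it had 68.0, 79.8, 64.2, 104 and 96.6 FPM in LIDPAD libraries and 118, 97.4, 113 and 127 FPM in control libraries, and LIDPAD library 4 reached into the control range. The difference was then -0.48 ± 0.16 with an adjusted p of 0.0483, and -0.63 in group B and -0.34 in group C. Sdha, Sdhb and Sdhc were not called in any week.

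Complexes III and IV yielded no call in any single week with limma. An unadjusted p under 0.05 was counted at weeks 8, 12, 16, 32 and 48. In complex III it held for 1, 1, 2, 1 and 1 of the 8 nuclear subunits. In complex IV it held for 1, 0, 0, 1 and 1. Over all genes tested it held for 3241 of 13271, 3956 of 13631, 5493 of 13914, 5450 of 14187 and 4014 of 14807. Those are larger shares than in either complex in each week. The 8 of complex III include Uqcrfs1, the Rieske iron-sulfur protein. Their median log2 difference was -0.03, -0.10, -0.05, -0.06, -0.11, -0.21 and -0.16 from week 1 to week 48. The nuclear subunits of complex IV had medians of 0.06, -0.08, 0.06, -0.04, -0.04, -0.18 and -0.14. These signs follow the deposited scale, and after rescaling the median over all nuclear members was above 0 in every week but week 4.

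Isoforms of complex IV known from muscle, lung, testis or other tissues stayed near the limit of detection. The highest value in any library was 0.342 FPM for Cox4i2, 0.247 FPM for Cox6a2, 0.353 FPM for Cox6b2, 1.01 FPM for Cox8b, 1.04 FPM for Ndufa4l2 and 1.93 FPM for Cox7a1. Of these, Cox7a1 was tested at week 32 alone, at 1.01 ± 0.606 FPM in LIDPAD and 1.11 ± 0.190 FPM in control livers (SD, n = 5 and 4). Their liver counterparts were abundant, Cox4i1 with a median of 132 FPM over the 38 libraries and Cox6a1 with 84.3 FPM.

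Complex V, the ATP synthase, held the member called most often. Atp5g1, Atp5g2 and Atp5g3 encode the same mature subunit c, the proton-carrying ring of the enzyme, behind different import sequences. Atp5g1, on the minus strand of chromosome 11 at chr11:96068852-96075670 in GRCm38, was called lower in all 5 weeks from week 8 to week 48. Its values were 66.0 and 63.4 FPM in LIDPAD and 90.3 and 86.4 FPM in control libraries at week 8, and 65.2 and 58.2 FPM in LIDPAD and 94.8 and 80.7 FPM in control libraries at week 12. At week 16 they were 71.1, 73.0 and 72.3 FPM in LIDPAD libraries, against 97.3, 98.9 and 97.3 FPM in control libraries.

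In the last weeks the same gene had 56.1, 75.4, 60.4, 56.3 and 55.6 FPM in LIDPAD and 83.7, 72.6, 100.4 and 78.3 FPM in control libraries at week 32, and 59.4, 57.5, 56.3 and 59.1 FPM in LIDPAD and 85.0, 67.3 and 82.5 FPM in control libraries at week 48. From week 8 on, the diets overlapped only through LIDPAD library 2 at week 32. Log2 differences were -0.45 ± 0.10, -0.50 ± 0.12, -0.44 ± 0.08, -0.46 ± 0.13 and -0.42 ± 0.10 at weeks 8, 12, 16, 32 and 48, with limma adjusted p of 0.0472, 0.0248, 0.00244, 0.0271 and 0.0364. At weeks 1 and 4 they were -0.09 and -0.30 and not called. Within these read-division groups the week 32 difference was -0.42 in group B, with an adjusted p of 0.139, and -0.48 in group C. All 5 weekly calls were lost after rescaling to a total of 1000000, with differences of -0.33, -0.30, -0.23, -0.15 and -0.14 and limma adjusted p of 0.144, 0.108, 0.0595, 0.475 and 0.449. The week 8 and week 12 calls were lost without either LIDPAD library. The week 32 call was lost without control library 1 or 3 or LIDPAD library 3, 4 or 5, and the week 48 call without control library 1 or any LIDPAD library. In all, the calls were lost in 9 of 15, 6 of 15, 2 of 17, 9 of 23 and 10 of 18 alternatives at weeks 8, 12, 16, 32 and 48. These alternatives include each column as its own sample and, at week 32, group C alone, where a kept call is weak support.

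The other subunit c genes were not called in any single week. Atp5g3, the most abundant of them, had 105, 104 and 101 FPM in week 16 LIDPAD libraries and 114, 115 and 109 FPM in control libraries, and its log2 difference was 0.00 at week 8 and 0.04 at week 12. Atp5g2 had 53.9, 59.3 and 54.8 FPM in week 16 LIDPAD libraries and 63.7, 63.5 and 61.6 FPM in control libraries, and its difference was 0.00 at week 8, -0.02 at week 12 and -0.38 at week 48, with a limma adjusted p of 0.0653 in the last. At week 4 Atp5g2 averaged 40.8 ± 3.59 FPM in LIDPAD and 54.9 ± 4.77 FPM in control livers (SD, n = 2 each), a log2 difference of -0.43 that was further below 0 than the -0.30 of Atp5g1 and was not called. In the mean of 7 weeks Atp5g2 was called lower, at -0.16 with a limma adjusted p of 0.0101, and Atp5g3 was not, at -0.09. The share of Atp5g1 in the summed subunit c FPM was 30.9, 30.9 and 31.7% in week 16 LIDPAD libraries and 35.3, 35.6 and 36.3% in control libraries. It was 32.1 and 29.8% in week 8 LIDPAD libraries and 39.3 and 36.7% in control libraries. The shares were also separated at week 4, at 34.2 and 36.1% in LIDPAD and 37.8 and 37.2% in control libraries, and at week 12, at 30.6 and 27.5% in LIDPAD and 39.1 and 35.0% in control libraries. They overlapped at week 1, with 32.4 and 34.1% in LIDPAD and 33.1% in both control libraries. They also overlapped at week 32, with 28.0 to 35.9% in LIDPAD and 33.0 to 37.8% in control libraries, and at week 48, with 29.6 to 33.5% in LIDPAD and 32.8 to 34.1% in control libraries. The difference between the 3 genes was not tested, and 38.4% of the stretches of Atp5g2 occur in other annotated genes.

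**Figure D4:**
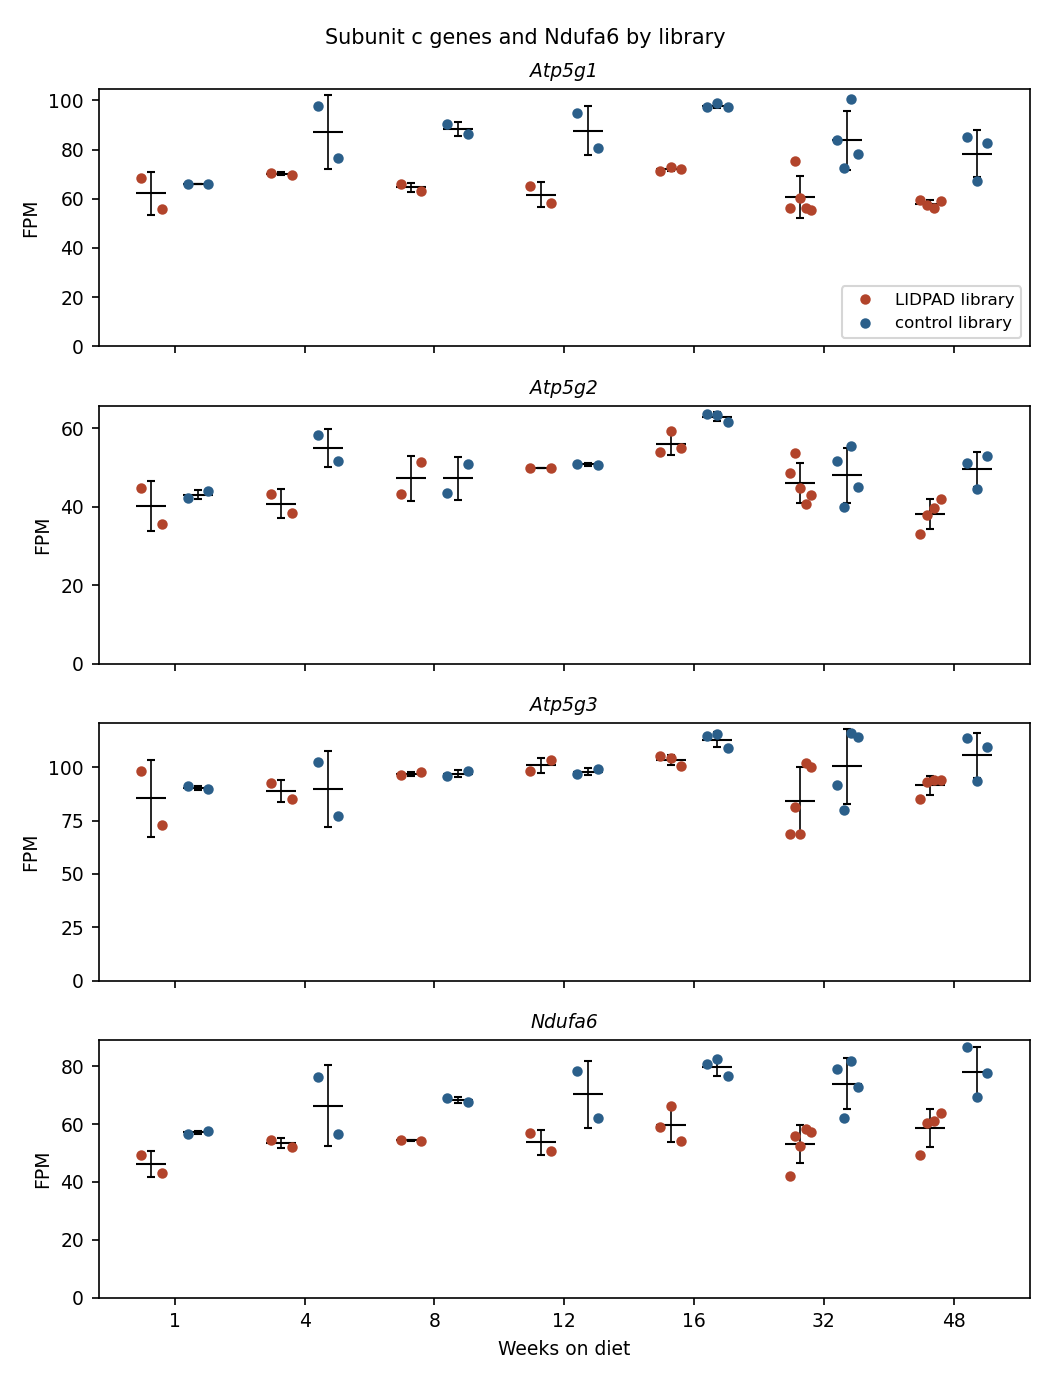
FPM of Atp5g1, Atp5g2, Atp5g3 and Ndufa6 in each library by weeks on diet, LIDPAD left of control; black bars are means ± SD. The LIDPAD dots of Atp5g1 lie below the control dots from week 4 on except for 1 library at week 32 with 75.4 FPM, and those of Ndufa6 lie below in every week.

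The windows around the start sites of these 4 genes are shown because Atp5g1 and Ndufa6 were called lower in single weeks, while Atp5g2 and Atp5g3 encode the same subunit c and were not called in any single week. The windows run from 250 bases before to 50 bases after the RefSeq start site in GRCm38.p6, and all 4 genes lie on the minus strand. Capitals mark matches on either strand to GCGCA, any base and GCGC in a row (NRF1-type), or to CCGGAAG (ETS-type), TCAAGGTCA (ERR-type) or AAGATGGC (YY1-type), motif letters of factors known for respiratory chain genes. Atp5g1 lies at chr11:96075582-96075881, Atp5g2 at chr15:102670998-102671297, Atp5g3 at chr2:73911277-73911576 and Ndufa6 at chr15:82354242-82354541.
Atp5g1: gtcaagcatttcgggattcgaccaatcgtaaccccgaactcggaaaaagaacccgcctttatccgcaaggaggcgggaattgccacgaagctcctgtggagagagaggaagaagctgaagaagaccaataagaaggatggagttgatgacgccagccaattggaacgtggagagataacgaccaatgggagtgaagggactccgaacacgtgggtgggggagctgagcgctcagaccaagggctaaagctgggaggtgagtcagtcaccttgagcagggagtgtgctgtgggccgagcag
Atp5g2: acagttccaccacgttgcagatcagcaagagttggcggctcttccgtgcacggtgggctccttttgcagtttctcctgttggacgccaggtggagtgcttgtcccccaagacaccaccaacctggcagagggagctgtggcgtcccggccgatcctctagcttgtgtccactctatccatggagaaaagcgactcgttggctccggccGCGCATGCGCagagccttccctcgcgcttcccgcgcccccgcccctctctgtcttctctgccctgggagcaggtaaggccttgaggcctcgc
Atp5g3: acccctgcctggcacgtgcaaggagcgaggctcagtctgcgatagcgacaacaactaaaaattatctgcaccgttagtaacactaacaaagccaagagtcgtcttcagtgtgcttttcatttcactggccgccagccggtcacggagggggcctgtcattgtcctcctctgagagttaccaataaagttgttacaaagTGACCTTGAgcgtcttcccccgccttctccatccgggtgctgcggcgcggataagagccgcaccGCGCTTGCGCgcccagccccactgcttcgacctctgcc
Ndufa6: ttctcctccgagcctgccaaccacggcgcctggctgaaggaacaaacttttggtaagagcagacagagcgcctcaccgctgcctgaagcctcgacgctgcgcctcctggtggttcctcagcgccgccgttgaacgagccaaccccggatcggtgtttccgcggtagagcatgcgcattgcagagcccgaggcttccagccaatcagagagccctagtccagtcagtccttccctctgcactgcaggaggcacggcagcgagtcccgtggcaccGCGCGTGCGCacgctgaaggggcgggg

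The Atp5g1 window held none of the 4 motifs, the Atp5g2 and Ndufa6 windows held the NRF1-type letters, and the Atp5g3 window held the NRF1-type and ERR-type letters. No match overlapped another motif in these windows, while the Atp5g2 match reads as NRF1-type on both strands. RefSeq windows were found for 73 of 95 nuclear members. NRF1-type letters occurred in 19 of these 73 (26.0%) and in 1402 of 27025 genes with a window (5.19%). ETS-type letters occurred in 24.7% of the members and 9.93% of all genes, YY1-type letters in 13.7% and 3.19%, and ERR-type letters in 2 of 73 members and 126 of 27025 genes. A match is a run of letters and no evidence of binding.

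Atp5h, the d subunit of the peripheral stalk of complex V, averaged 69.3 ± 6.04 FPM in week 48 LIDPAD livers and 90.2 ± 4.63 FPM in control livers (SD, n = 4 and 3), with a log2 difference of -0.38 ± 0.09 and a limma adjusted p of 0.0435. A processed pseudogene shares 19.1% of its stretches. Atp5a1 and Atp5b, the subunits of the catalytic head, were not called in any week. Leaving out control library 3 raised the week 48 count of nuclear calls to 14, leaving out control library 2 gave 1, and leaving out control library 1 or any LIDPAD library gave 0. Calls over all genes ran from 134 to 5714 in these fits.

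Averaging the diet difference over the 7 weeks in a joint fit used all 38 libraries. In this mean, 3 of 13 mitochondrial mRNAs (mt-Nd5, mt-Nd4 and mt-Atp8) and 20 of 87 nuclear members were called lower, where 15.4% of all genes were. A single nuclear member, Atp5s, was called higher, where 22.1% of all genes were. Among the members called, the largest falls were those of Atp5g1, by 0.38 ± 0.05 on the log2 scale with a limma adjusted p of 7.90e-07, and of Ndufa6, by 0.37 ± 0.05 with an adjusted p of 4.15e-06. Next among them came mt-Nd5 and mt-Nd4, each by 0.31 ± 0.09, Sdhd by 0.28 ± 0.06, Ndufb11 by 0.27 ± 0.06, Ndufb10 by 0.23 ± 0.05 and Uqcrh, the hinge protein of complex III, by 0.22 ± 0.05. mt-Cytb, which was not called, had a mean difference of -0.23 with an adjusted p of 0.0581. After rescaling to a total of 1000000 the counts of lower members were 0 mitochondrial and 2 nuclear, and the calls of Atp5g1, Ndufa6 and Atp5s held in all 14 alternatives run. Without week 8, without week 32 and without week 32 LIDPAD library 2 the mitochondrial count was 6, 5 and 6, and without week 16 or week 48 the counts were 1 mitochondrial and 11 nuclear.

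Atp5s, whose product is known as a coupling factor and is also called distal membrane arm assembly component 2-like, was a low gene. Its values at week 32 were 4.78, 4.63, 4.77, 3.39 and 3.22 FPM in LIDPAD libraries and 2.81, 1.57, 2.59 and 3.29 FPM in control libraries, which overlapped. At week 48 they were 6.65, 5.72, 3.43 and 5.50 FPM in LIDPAD libraries and 1.87, 3.93 and 3.19 FPM in control libraries, where LIDPAD library 3 lay within the control range. The mean difference over 7 weeks was 0.44 ± 0.10 with a limma adjusted p of 0.00152, and no single week was called in FPM.

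**Figure D5:**
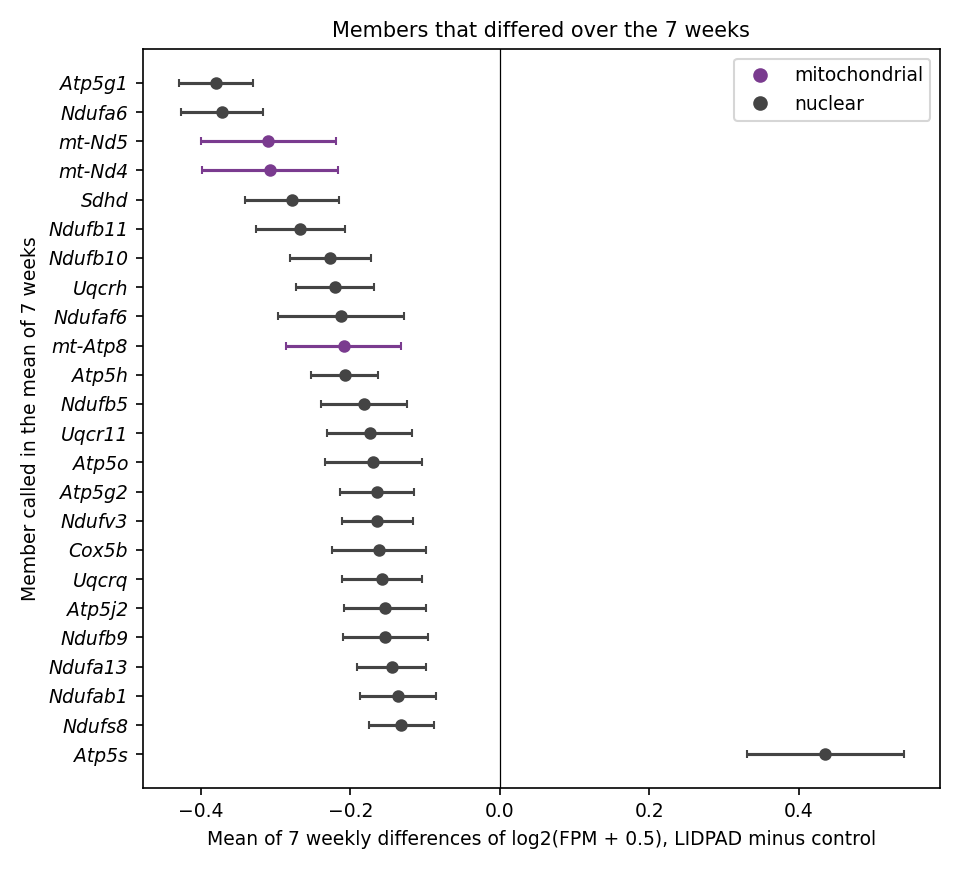
Members called in the mean of the 7 weekly diet differences, with the mean log2 difference on the x axis, LIDPAD minus control; dots are estimates, bars are ± SE, and colour separates mitochondrial from nuclear members. All but Atp5s, at 0.44, lie below 0, and Atp5g1 lies furthest below at -0.38.

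The diet difference was also compared between weeks. The diet-by-week F test in limma called 0 of 13 mitochondrial and 0 of 87 nuclear members, where 10.7% of all genes were called. At an unadjusted p under 0.05 the numbers were 0 and 2, those 2 being the complex I assembly factors Ndufaf5 and Ndufaf4, with adjusted p of 0.0754 and 0.179. The subunits with the smallest interaction p per complex were Ndufa1, Sdha, Uqcrq, Cox7a1 and Atp5g2, with adjusted p between 0.271 and 0.716. Changes of the members over time are therefore not shown by this test. After rescaling to a total of 1000000, or to that total without the mitochondrial genome, 1 and 4 members were called.

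Other mitochondrial genes were counted from fixed lists, and no test compared a list with the members. Of 18 genes of mitochondrial fatty acid oxidation, 9, 11 and 9 were called higher in LIDPAD at weeks 8, 12 and 16, where 3.85, 8.99 and 16.3% of all genes were called higher, and their median log2 differences were 0.53, 0.48 and 0.32. Decr1, a reductase for unsaturated fatty acids, averaged 138 ± 5.29 FPM in week 8 LIDPAD and 78.7 ± 2.31 FPM in control livers (SD, n = 2 each), with a limma adjusted p of 0.00980. Acadm, the medium-chain dehydrogenase, averaged 252 ± 7.98 FPM in week 12 LIDPAD and 137 ± 2.02 FPM in control livers (SD, n = 2 each), with an adjusted p of 0.000978. At week 32, 0 of the 18 were called higher and 2, Acsl1 and Acaa2, were called lower, where 18 and 8.82% of all genes were.

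Of 14 citrate cycle genes 1, 2, 1, 1 and 1 were called higher at weeks 8, 12, 16, 32 and 48, where 3.85, 8.99, 16.3, 18 and 6.54% of all genes were. These counts lay below that background at weeks 16 and 32 and close to it at week 48. Idh2, the mitochondrial NADP-dependent isocitrate dehydrogenase, was called higher in all 5 of these weeks, with log2 differences of 0.84, 0.88, 0.55, 1.19 and 0.71. Fh1, the fumarase, was called lower at weeks 32 and 48, and Cs, the citrate synthase, at week 16. Of 13 carriers and uncoupling proteins, Ucp2 was called higher in all 5 weeks from week 8, at 28.5 ± 3.20 FPM in week 16 LIDPAD and 11.8 ± 0.836 FPM in control livers (SD, n = 3 each). Slc25a20, the carnitine carrier of fatty acid oxidation, was called higher at weeks 8, 12 and 16.

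Few genes of the assembly and electron transfer lists were called. Among 24 further assembly factors of complex IV, 1, 1 and 2 were called higher at weeks 8, 12 and 16, where 3.85, 8.99 and 16.3% of all genes were. List medians were 0.15, 0.11 and 0.03 on the log2 scale. Cox19 was among those called in each of these weeks, at 25.0 ± 0.948 FPM in week 16 LIDPAD and 17.4 ± 2.24 FPM in control livers. Surf1 was called lower at week 16. Among 19 genes of electron carriers and coenzyme Q synthesis, Coq8a, a kinase-like protein of coenzyme Q synthesis, was called lower at weeks 12, 16 and 48, with a log2 difference of -1.18 ± 0.14 at week 16, and Coq7 was called higher at weeks 12 and 16. Dmac2, a complex I assembly protein, was called lower at weeks 12, 16 and 32.

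Regulators and the machinery of mitochondrial gene expression were mixed. Ppargc1a, a coactivator of mitochondrial biogenesis, averaged 8.51 ± 0.932 FPM in week 16 LIDPAD livers and 15.0 ± 0.788 FPM in control livers (SD, n = 3 each), with a limma adjusted p of 0.000954. Yy1, a transcription factor, was called lower at weeks 16 and 32. Of 24 genes of mitochondrial RNA synthesis and processing, Rexo2, an oligoribonuclease, was called higher at weeks 8, 12 and 16. At week 32, 3 of the 24 were called lower, where 8.82% of all genes were. Among them was Lrpprc, which stabilizes mitochondrial mRNAs, at 85.1 ± 14.2 FPM in LIDPAD and 122 ± 11.9 FPM in control livers (SD, n = 5 and 4). Twnk, the mitochondrial DNA helicase, was called lower at weeks 16 and 32. Of 78 mitochondrial ribosomal proteins 4 were called higher at week 16, where 16.3% of all genes were. At week 32, 1 was called higher and 3 lower, where 18 and 8.82% of all genes were. These counts lay below that background.

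Markers of liver cell types also differed between the diets. At week 16, 4 of 6 hepatocyte markers tested were called lower, where 12% of all genes were. Their sum was 34584 to 43139 FPM in LIDPAD and 68512 to 83074 FPM in control libraries. All 9 macrophage markers were called higher at weeks 16 and 32, where 16.3 and 18% of all genes were. Their sums were 380 to 524 FPM in LIDPAD and 66.5 to 112 FPM in control libraries at week 16. At week 32 these were 577 to 1653 FPM in LIDPAD and 59.2 to 109 FPM in control libraries. All 7 stellate cell markers were called higher at weeks 12 and 16, where 8.99 and 16.3% of all genes were. Their sums were 596 to 668 FPM in LIDPAD and 162 to 214 FPM in control libraries at week 16. At week 1, 0 macrophage markers were called, and their sums were 70.7 to 121 FPM in LIDPAD and 56.2 to 65.9 FPM in control libraries. At week 48 the hepatocyte sum was 26006 to 36633 FPM in LIDPAD and 63412 to 82510 FPM in control libraries. The part of these cell type markers in the respiratory chain results was not tested.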

How the data were processed

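Liver RNA was extracted with TRIzol and column-purified before sequencing, per the labels' protocols. HISAT2, featureCounts, DESeq2 and GRCm38 are named in the submitters' processing notes, with no versions, roles or strand setting. The deposited values are a signal, FPM (counts over a size factor, per 1000000), in 1 table per week. All values in the 152 deposited columns were whole reads within 0.02 reads, but 4 columns whose step was close to 0.1 FPM were left out of count tests.

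Blocks of 4 columns were averaged to 1 library, as planned. A chi-square of the reads, averaged over genes that had 200 to 2000 of them, was 2.03 to 2.16 within blocks and at least 2.56 between libraries of a group, with a limit of 2.5.

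Diets were compared within each week with limma 3.58.1 in R 4.3.3, with a mean-variance trend, on log2(FPM + 0.5). Genes were tested if they reached 1 FPM in at least the number of libraries of the smaller group, and p-values were adjusted by Benjamini-Hochberg over all genes tested, with a threshold of 0.05. A joint fit of 14 group means gave the diet-by-week F test and the mean of 7 weeks, which was added after the data were seen. Alternatives were edgeR 4.0.16, DESeq2 1.42.0, pseudocounts of 0.1 and 1, no filter or 5 FPM, rescaled totals, no trend, a replicate block, groups of libraries by read division, each column as a sample, and leaving out libraries or weeks. The fits were tested on simulated data. Tables and figures were made in Python 3.11.15.

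The rule for named genes took all 13 mitochondrial mRNAs, per week up to 4 called nuclear members in each direction, the nuclear member with the smallest interaction p per complex, the tissue-restricted isoforms, and up to 2 called genes per list and week. Genes named beyond it, among them those called in the mean of 7 weeks, the other subunit c genes and further list genes, were chosen after their values were seen. Members and lists were chosen with earlier results of these data known. Promoter windows are from RefSeq (GRCm38.p6).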

Additional observations from a re-analysis of the deposited data

Results flagged for a closer look

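Each of 87 checks looked at 1 gene or sum in a week 32 or week 48 group of 4 or 5 libraries. In 7 of them a library lay far from the others of its group. A single check flags about 1 in 20 groups by chance. The checks share their libraries, so 7 of 87 cannot be set against that rate. LIDPAD library 2 of week 32 was the highest for mt-Nd1, with 3571 FPM against 2465 FPM in the nearest other LIDPAD library. The same library was highest for mt-Nd2, with 3170 FPM against 1778 FPM, and for mt-Nd4, with 3257 FPM against 1966 FPM. It was also highest for mt-Nd4l, with 424 FPM against 244 FPM, and for Atp5g1, with 75.4 FPM against 60.4 FPM. For Ndufb11 it was the lowest, with 24.4 FPM against 34.9 FPM. LIDPAD library 1 of week 48 was the lowest for Atp5g3, with 84.9 FPM against 92.9 FPM in the nearest other LIDPAD library.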

How the results depend on the processing

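Counts of called members, in either direction, depended on the settings. Of 485 alternatives for 29 calls of named members, 317 kept the call, 167 lost it and 1 turned sign: week 32 Ndufb5 was 0.026 after rescaling without the mitochondrial genome. For single weeks they include each column as its own sample and, at week 32, group C alone. A call kept there rests on technical columns or on a single control library. Under DESeq2 the mitochondrial counts were 1, 8 and 11 at weeks 12, 16 and 48 and the nuclear counts 15 and 8 at weeks 32 and 48. Under edgeR the nuclear counts were 0, 7 and 5 at weeks 8, 32 and 48 and the mitochondrial count 5 at week 16. Shares of all genes called by DESeq2 and edgeR are not given here, so these counts have no background. With each column as its own sample, mitochondrial counts were 10, 4, 9, 11, 2 and 13 at weeks 1, 8, 12, 16, 32 and 48, and nuclear counts 7, 12, 22, 20, 26, 37 and 45 from week 1 to week 48. Without a filter, nuclear counts were 0, 0 and 1 at weeks 8, 12 and 48 and mitochondrial counts 1 and 0 at weeks 16 and 48. With a filter of 5 FPM the week 8 nuclear count was 0 and the mitochondrial count in the mean of 7 weeks was 5. Without a trend, nuclear counts were 0, 2 and 0 at weeks 8, 16 and 48.

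Rescaling to a total of 1000000 gave nuclear counts of 0, 3 and 1 at weeks 8, 12 and 32, mitochondrial counts of 0 at weeks 16 and 48, 1 interaction call, and 0 mitochondrial and 2 nuclear in the mean. Rescaling without the mitochondrial genome gave nuclear counts of 0, 3, 9 and 0 at weeks 8, 12, 32 and 48, mitochondrial counts of 0 at weeks 16 and 48, 4 interaction calls, and 0 and 2 in the mean. The grouping by read division as a covariate gave 12 nuclear calls at week 32. Group C alone gave 8 mitochondrial and 22 nuclear, which say nothing about diet because it holds 1 control library and 2 LIDPAD libraries close to technical noise (chi-square 2.56 to 2.65). The mean without week 8 or 32 had 6 or 5 mitochondrial calls, and without week 16 or 48 it had 1 mitochondrial and 11 nuclear. The week 4 difference was 0.033 with the mRNAs of few shared stretches. The cause was not tested.

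Library numbers did not pair the samples: correlations of same-numbered libraries ran from -0.12 to 0.12, and 0 of 3, 0 of 4 and 1 of 3 control libraries at weeks 16, 32 and 48 correlated best with their own number. With a replicate block, nuclear counts were 0, 2, 0 and 0 at weeks 8, 12, 32 and 48 and the week 48 mitochondrial count was 0.

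Leaving out each library gave mitochondrial counts of 0 to 2, 0 to 0, 0 to 3, 0 to 4, 1 to 4, 0 to 0 and 0 to 7, and nuclear counts of 0 to 1, 0 to 1, 0 to 1, 0 to 15, 2 to 7, 0 to 6 and 0 to 14 from week 1 to week 48. Counts over all genes ran from 33 to 1123, 39 to 855, 82 to 1665 and 853 to 3104 at weeks 1 to 12. At weeks 16, 32 and 48 they ran from 2810 to 4058, 2988 to 3629 and 134 to 5714. The mitochondrial minus nuclear difference ran from -0.26 to -0.18, -0.11 to 0.039, -0.073 to 0.17, -0.29 to -0.05, -0.24 to -0.14, -0.16 to 0.06 and -0.31 to -0.19. The mean of 7 weeks without week 32 LIDPAD library 2 had 6 mitochondrial and 19 nuclear calls.

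Weeks 1 to 12 had 2 libraries per diet, which limits what their tests can show, and the shallowest library, at week 32, had 10870033 reads.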

Other observations

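Of 15 genes of mitochondrial stress responses, 1, 0, 0, 2, 2, 3 and 3 were called lower and 0, 0, 2, 1, 0, 0 and 0 higher from week 1 to week 48. Of all genes, 1.27, 0.166, 1.75, 6.25, 12, 8.82 and 3.34% were called lower, so the count of lower genes was about the background at week 16. Shares of all genes called higher were 0.726, 0.121, 3.85, 8.99, 16.3, 18 and 6.54%. Clpx, a subunit of a matrix protease, averaged 99.4 ± 7.69 FPM in week 1 LIDPAD livers and 150 ± 4.62 FPM in control livers (SD, n = 2 each), with a limma adjusted p of 0.0374, and was also called lower at weeks 12, 16 and 48. Atf4, a transcription factor of the integrated stress response, was called lower at weeks 12, 16, 32 and 48, with log2 differences of -0.66, -0.55, -0.59 and -0.87. Fgf21, a hormone secreted by liver, was called higher at week 8, at 7.94 ± 0.330 FPM in LIDPAD and 3.06 ± 0.480 FPM in control livers (SD, n = 2 each), and lower at week 48, at 4.40 ± 2.13 FPM in LIDPAD and 17.6 ± 7.47 FPM in control livers (SD, n = 4 and 3).

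Of 12 genes of mitochondrial DNA maintenance, Mpv17 was called higher at weeks 16 and 32, and Rrm2b, a ribonucleotide reductase subunit, at week 32, at 6.52 ± 0.538 FPM in LIDPAD and 2.79 ± 0.310 FPM in control livers (SD, n = 5 and 4). Among assembly factors and other subunits outside the members, 0 of 4 for complex II were called in any week. Uqcc2 was the 1 of 7 called for complex III, higher at week 16, where 16.3% of all genes were. Atpif1, the inhibitor of the ATP synthase, was the 1 of 6 called for complex V, higher at week 32, where 18% were. Of 87 cytosolic ribosomal protein genes tested at week 4, 45 had an unadjusted p under 0.05 and 0 were called by limma, with a median log2 difference of -0.36. Over all genes tested, 1457 of 13237 had such a p and 0.287% were called.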
